A study of Ovis aries with 41 samples.

Results

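Skin of the mid-tail was compared with skin of the tail base in the 4 rams homozygous for the ancestral (A/A) allele of the HOXB13 promoter. The members are the libraries whose labels name an A/A ram and either position. They are 16 of the 41 libraries of the series, and after the 2 libraries of each ram and position were summed they are 8 of 21 ram sums. All animals were adult Improved Jezersko-Solčava (IJS) rams, a Slovenian breed in which a derived (D) allele of the HOXB13 promoter segregates with longer tails, and the series also holds 3 rams homozygous for that allele (D/D) and skin of the tail tip of all rams. The base was taken at the first caudal vertebra and the mid-tail at the midpoint of the measured tail, so its distance from the base depended on the length of the tail. Whole skin was sampled, and epidermis, wool follicles, dermis, glands, vessels and nerves contribute to every value. Each ram gave both positions, and every difference below is within the same animal. No treatment was applied, and the rams had been excluded from breeding.

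HOX genes encode transcription factors that are used along the body axis in the order in which they lie in their clusters, with the last paralog groups in the most posterior structures, the tail, the genitals and the distal limbs. Fibroblasts of adult skin keep part of this code, so that skin of different body sites can be told apart by the HOX, T-box and limb patterning genes it expresses. HOXB13 lies at the posterior end of the HOXB cluster, and its loss in mice gives a longer tail.

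Library totals were 9996782 to 16083735 counts at the base and 9177395 to 15862060 at the mid-tail, and ram sums were 22194628 to 32057787 and 21479841 to 31652353. The 2 libraries of a ram and position had a Spearman correlation of 0.922 to 0.992 over genes, lowest at the mid-tail of ram 871784 and highest at the mid-tail of ram 871932. Skin markers were high at both positions. The summed epidermal markers (KRT5, KRT14 and KRT1, with KRT10 not under that name in the table) were at 11240 to 23833 CPM (counts scaled to the TMM-normalized library total) at the base and 11794 to 27456 CPM at the mid-tail. With a term for each ram in the fit, the p-values rest on how far differences between positions varied from ram to ram. That spread was estimated from few rams, with the D/D rams and the tail tips included.

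Few genes passed the test between the positions. Of 19444 genes tested with edgeR's quasi-likelihood test, with the ram as a block, 5 rose at the mid-tail at a Benjamini-Hochberg adjusted p under 0.05 (0.0257% of the genes tested) and 0 fell, with 1969 genes at an unadjusted p under 0.05. These genes were the HOX genes HOXB13 and HOXC10, the T-box gene TBX3, the lubricin gene PRG4 and the stathmin gene STMN2. The number rested on single rams. Without ram 871932 it was 0, and without ram 871784 it was 26, of which 17 were higher and 9 lower at the mid-tail, with all 5 genes among them. Without ram 871772 it was 3, without ram 835507 it was 6, and without the D/D rams 871787, 871868 or 871869, which enter the shared estimate of the spread and the filter on low counts, it was 3, 3 and 2. DESeq2 on the same ram sums called 141 genes, 82 higher and 59 lower, and limma-voom called 10. With the A/A rams alone in the fit, edgeR called 1 gene, PRG4.

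HOXB13 (chromosome 11, 37525009 to 37530787, ARS-UI_Ramb_v3.0) was close to the limit of detection at the base and present in every ram at the mid-tail. The base libraries held 2 HOXB13 counts in all, 1 each from rams 835507 and 871784, against 217 counts at the mid-tail. In CPM the base and mid-tail values were 0.0441 and 0.776 in ram 835507, 0 and 2.15 in ram 871772, 0.0308 and 0.42 in ram 871784, and 0 and 3.98 in ram 871932. Every mid-tail value lay above every base value, and among the mid-tails ram 871932 was the highest and ram 871784 the lowest. The means were 0.0187 ± 0.0223 CPM at the base and 1.83 ± 1.61 CPM at the mid-tail (SD, n = 4 rams). From the summed counts the ratio of mid-tail to base was 97.9, with a 95% interval of 26.8 to 813 that covers counting error only. The fitted log2 fold change was 6.0 (standard error, SE, 0.82, edgeR adjusted p = 0.0184), and it depends on how a zero is handled. The call was lost without ram 871772 (adjusted p = 0.0794), without ram 871932 (adjusted p = 0.121) and without the D/D ram 871869 (adjusted p = 0.0583, all from edgeR). Paired libraries of the mid-tail differed in this gene in some rams, with 43 and 15 counts in ram 871772, 5 and 14 in ram 835507 and 9 and 3 in ram 871784. They were closer in ram 871932, at 71 and 57 counts.

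HOXC10 (chromosome 3, 132524743 to 132529862), a posterior HOX gene of the HOXC cluster, was already expressed at the base. Its CPM at the base and the mid-tail was 4.06 and 8.90 in ram 835507, 3.26 and 12.4 in ram 871772, 4.29 and 5.70 in ram 871784 and 4.25 and 11.8 in ram 871932. The base values lay close together, and ram 871784 had by far the smallest step. The mean went from 3.96 ± 0.478 to 9.71 ± 3.08 CPM (SD, n = 4 rams), a log2 fold change of 1.25 (SE 0.19, edgeR adjusted p = 0.0357). Among the fits that left out 1 ram, HOXC10 passed only in the one without ram 871784 (adjusted p = 0.0107), and its adjusted p was 0.101 to 0.398 in the others.

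TBX3 (chromosome 17, 60162178 to 60176145), a T-box repressor of limb, mammary and heart development, was higher at the mid-tail in each ram. Its CPM was 10.5 and 18.6 in ram 835507, 7.55 and 19.5 in ram 871772, 5.0 and 12.5 in ram 871784, and 7.12 and 17.4 in ram 871932. The lowest mid-tail value was above the highest base value, and ram 835507 had the highest base and the smallest ratio of mid-tail to base. The means of 7.53 ± 2.25 and 17.0 ± 3.1 CPM (SD, n = 4 rams) gave a log2 fold change of 1.19 (SE 0.17, edgeR adjusted p = 0.0210). The call was lost in edgeR without ram 871772 (adjusted p = 0.0794), ram 871932 (adjusted p = 0.139), and the D/D rams 871787 (adjusted p = 0.0692), 871868 (adjusted p = 0.0705) and 871869 (adjusted p = 0.0583).

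PRG4 (chromosome 12, 66828456 to 66844717) encodes lubricin, a mucin-like glycoprotein that lubricates joints and tendon sheaths. Its CPM at base and mid-tail was 6.80 and 57.1 in ram 835507, 6.34 and 44.9 in ram 871772, 9.71 and 45.7 in ram 871784, and 10.2 and 117 in ram 871932. The base values were near each other, while the mid-tail of ram 871932 stood above the other three mid-tails. The means were 8.25 ± 1.96 and 66.3 ± 34.5 CPM (SD, n = 4 rams), with a log2 fold change of 2.92 (SE 0.43, edgeR adjusted p = 0.0229). The call was lost in edgeR without ram 835507 (adjusted p = 0.109), without ram 871772 (adjusted p = 0.0672) and without ram 871932 (adjusted p = 0.337). With the A/A rams fitted alone its adjusted p was 0.00825 from edgeR.

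STMN2 (chromosome 9, 55888846 to 55947813), a tubulin-binding protein of growing axons, had the smallest p of all genes. Its CPM was 7.28 and 22.3 in ram 835507, 8.39 and 27.0 in ram 871772, 3.05 and 12.9 in ram 871784, and 4.45 and 29.1 in ram 871932. No base value reached a mid-tail value, and ram 871784 was lowest at both positions. The means were 5.79 ± 2.47 and 22.9 ± 7.18 CPM (SD, n = 4 rams), with a log2 fold change of 2.03 (SE 0.26, edgeR adjusted p = 0.0165). Among the fits that left out 1 ram, its call was lost without ram 871932 (adjusted p = 0.116), and it was also lost with the A/A rams fitted alone (adjusted p = 0.0614, both from edgeR). In bulk skin, a difference in the number of cells of a type and a difference in RNA per cell cannot be told apart, for STMN2 and PRG4 as for every gene here.

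**Figure D1:**
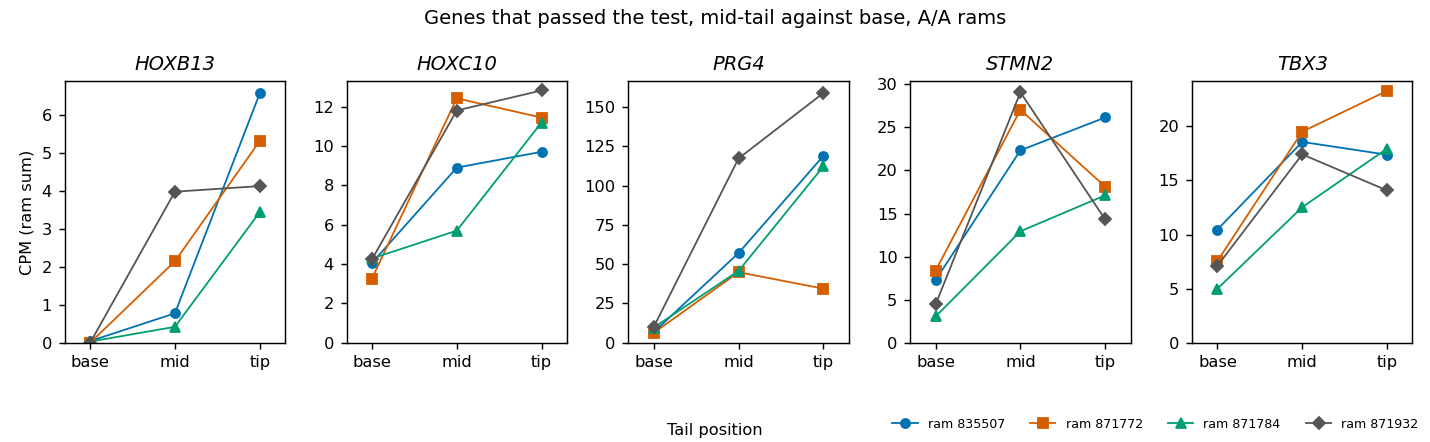
CPM after TMM normalization of the 5 genes called at the A/A mid-tail, at each of the sampled positions of the 4 A/A rams, with lines joining the values of a ram. In each of the 5 genes all 4 lines go up from base to mid-tail, and ram 871784 has the lowest mid-tail value in all of them except PRG4.

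The 5 genes were part of a set of 154 genes (0.792% of the genes tested) whose 4 mid-tail values all lay above the 4 base values, while 85 genes (0.437%) had all mid-tail values below the base. Within rams, 1273 genes (6.55%) were higher at the mid-tail in 4 of 4 rams and 1242 (6.39%) were lower. The fold changes were balanced over all genes tested, with 9438 above and 10006 below 0 and a median log2 fold change of -0.01, and 1003 genes were higher and 966 lower at an unadjusted p under 0.05. The gene groups below are read against these shares.

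Of the posterior HOX genes (paralog groups 9 to 13), 14 were tested, 2 rose, HOXB13 and HOXC10, and the other 12 did not pass the test. Their log2 fold changes were above 0 in 11 and below in 3, with a median of 0.50, and 7 were higher and 2 lower at the mid-tail in 4 of 4 rams. The median log2 difference of the list was -0.03 in ram 871784 and 0.50 to 0.74 in the other rams. HOXA13, a gene of the distal limb and the genital tubercle, was at 1.24 and 3.76 CPM at base and mid-tail of ram 835507, 1.49 and 4.07 in ram 871772, 0.432 and 1.99 in ram 871784 and 0.93 and 2.24 in ram 871932. Its groups did not overlap, and its log2 fold change was 1.61 (SE 0.33, edgeR adjusted p = 0.126). HOXC11 (log2 fold change 1.21, adjusted p = 0.207), HOXA11 (1.20, adjusted p = 0.291), HOXA9 (0.75) and HOXA10 (0.55, adjusted p = 0.334, all from edgeR) were also higher in each ram, and ram 871784 had only 0.63 against 0.463 CPM in HOXA11 and 0.804 against 0.771 CPM in HOXC11. HOXC13, which is used in the wool and hair follicle, went the other way, at 88.5 and 28.5 CPM in ram 835507, 139 and 120 in ram 871772, 175 and 127 in ram 871784 and 175 and 112 in ram 871932. Its log2 fold change was -0.78 (adjusted p = 0.30 from edgeR), and HOXB9 was at -0.76. HOXD12 and HOXD13 had too few counts to be tested.

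Of 20 anterior and central HOX genes (groups 1 to 8), none passed the test. Their log2 fold changes were above 0 in 17 and below 0 in 3, with a median of 0.27, or 0.17 without ram 871772, and 6 were higher in each ram. HOXA6 was higher at the mid-tail in each ram with a log2 fold change of 1.02 (SE 0.24, edgeR adjusted p = 0.160), from 9.13 to 15.2, 4.05 to 9.73, 3.33 to 8.92 and 6.75 to 11.6 CPM. HOXA5 was at 0.62 (adjusted p = 0.260 from edgeR), and HOXA3 and HOXB3 were each lower at the mid-tail of ram 871784 than at its base.

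T-box factors are transcription factors of limb, heart and mesoderm development. Of 11 tested, TBX3 rose and the other 10 did not pass. The log2 fold changes of 10 were above 0, with a fitted median of 0.69, and 5 were higher in each ram. The median log2 difference per ram, with 0.5 CPM added, was smaller. It was 0.49, 0.47, 0.11 and 0.24 in rams 835507, 871772, 871784 and 871932. TBX4, a hindlimb gene, was lowly expressed, with 0.176 and 0.654 CPM in ram 835507 and 0.0925 and 0.14 CPM in ram 871784, and a log2 fold change of 1.35 (adjusted p = 0.334 from edgeR). TBX15, which acts in dermal patterning, was at 30.0 and 50.1 CPM in ram 835507 but at 23.8 and 24.6 CPM in ram 871784, and its log2 fold change was 0.54 (adjusted p = 0.295 from edgeR). TBX18, a gene of mesenchyme and mural cells, was lower at the mid-tail in ram 871772 and higher in the other rams (0.69, adjusted p = 0.363 from edgeR).

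Of 36 limb and appendage transcription factors, none passed the test. In this list 26 log2 fold changes were above 0 and 10 below, with a median of 0.26. The mesenchymal factors TWIST2 (log2 fold change 0.84, adjusted p = 0.160) and TWIST1 (0.81, adjusted p = 0.207), and MEIS1 (0.62, adjusted p = 0.203, all from edgeR), a partner of HOX proteins, had the smallest p among those above 0. TWIST2 did not differ in ram 871784, at 5.64 CPM at the base and 5.56 at the mid-tail, while it was at 5.66 and 13.5 CPM in ram 871932. DLX1, a homeobox gene of forebrain and jaw that is in none of the lists, lay lower at every mid-tail than at any base, at 5.69 and 1.23 CPM in ram 835507, 7.36 and 4.85 in ram 871772, 7.28 and 5.07 in ram 871784 and 9.22 and 2.36 in ram 871932. Its log2 fold change was -1.33 (SE 0.29, edgeR adjusted p = 0.150).

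Genes of signals that pattern limbs and follicles did not pass the test either. In the hedgehog pathway, 10 of 15 fold changes were above 0, with a median of 0.09, and the pathway's target gene PTCH1 (log2 fold change -0.43, adjusted p = 0.389 from edgeR) was lower in 3 of 4 rams. Of 25 Wnt antagonist and R-spondin genes 15 were above 0, with a median of 0.02. LGR6, an R-spondin receptor of epidermal stem cells, was higher at each mid-tail (log2 fold change 1.27, adjusted p = 0.160 from edgeR), and the Wnt effector LEF1 of the hair matrix was lower at each (-0.90, adjusted p = 0.271 from edgeR). The medians of 16 Wnt ligands, 22 BMP and GDF genes and 24 FGF genes were 0.06, -0.06 and 0.13. Without ram 871772 the medians of the hedgehog, Wnt antagonist and Wnt ligand lists were -0.07, -0.17 and -0.07. INHBA, a subunit of activin, had all mid-tail values above the base values, 30.5 to 58.9 against 24.9 to 29.1 CPM (log2 fold change 0.62, adjusted p = 0.150 from edgeR).

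Of 23 genes of tendon, cartilage and joint matrix, PRG4 rose and the other 22 did not pass. The fold changes of 19 were above 0, with a median of 0.38, or 0.20 without ram 871772. THBS4, a thrombospondin of tendon and muscle attachments, was at 10.8 and 21.4 CPM in ram 835507, 25.2 and 81.8 in ram 871772, 18.4 and 24.1 in ram 871784 and 23.0 and 51.6 in ram 871932 (log2 fold change 1.09, SE 0.20, edgeR adjusted p = 0.0703). TNMD, tenomodulin, a membrane protein of tendon cells, was also higher in each ram, but from 0.176 to 0.245 CPM in ram 835507 and from 2.94 to 8.18 CPM in ram 871772 (1.61, adjusted p = 0.154 from edgeR). MATN4, a matrilin, was lower at each mid-tail, 1.29 to 2.55 against 3.19 to 5.95 CPM (-1.36, adjusted p = 0.160 from edgeR).

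The summed level of 6 tendon, cartilage and joint markers, of which PRG4 is one, was higher at the mid-tail in 4 of 4 rams. It was 9.53 and 60.1 CPM at base and mid-tail of ram 835507, 11.7 and 70.4 in ram 871772, 12.9 and 52.1 in ram 871784 and 15.5 and 137 in ram 871932. Without PRG4 the sums were 2.74 and 2.98, 5.41 and 25.5, 3.15 and 6.33, and 5.34 and 19.2 CPM in the same order, so they were higher at the mid-tail in 4 of 4 rams but nearly level in ram 835507, where PRG4 itself went from 6.80 to 57.1 CPM. The part of deeper tissue in the values of PRG4 was not tested.

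Of 26 neuron and neuropeptide genes, STMN2 rose and 25 did not pass, and 17 fold changes were above 0, with a fitted median of 0.27. The median log2 difference per ram, with 0.5 CPM added, was smaller. It was 0.07, 0.08, -0.07 and 0.03 in rams 835507, 871772, 871784 and 871932. SCG3, a secretogranin of neuroendocrine granules, was higher in each ram (log2 fold change 1.36, adjusted p = 0.216 from edgeR), whereas SNAP25, a synaptic fusion protein, was lower in each (-1.20, adjusted p = 0.291 from edgeR), and so was RTN1, a reticulon of neurons (-0.54, adjusted p = 0.285 from edgeR). Of 17 Schwann cell and myelin genes none passed, 9 were above 0, and the median was 0.04. Without STMN2, the nerve markers summed to 23.5 and 44.2 CPM at base and mid-tail of ram 835507, 21.6 and 22.6 in ram 871772, 11.5 and 9.93 in ram 871784 and 21.7 and 21.4 in ram 871932. They were higher at the mid-tail in 2 of 4 rams, whereas STMN2 was higher in 4 of 4.

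The summed smooth muscle markers were higher at the mid-tail in 3 rams and not in ram 871784. The 4 markers summed to 949 and 2413 CPM at base and mid-tail of ram 835507, 834 and 2029 in ram 871772, 661 and 566 in ram 871784, and 1077 and 2205 in ram 871932. By library, ram 871784 was at 822 and 320 CPM at the mid-tail and at 614 and 716 CPM at the base. Libraries also differed in ram 835507, at 1524 and 440 CPM at the base and 3041 and 1599 CPM at the mid-tail. In ram 871772 the base libraries were at 1053 and 605 CPM. Both mid-tail libraries lay above both base libraries in rams 835507, 871772 and 871932. Of 18 smooth muscle and pericyte genes none passed, 15 fold changes were above 0, and the median was 0.54, or 0.31 without ram 835507. ACTG2, an actin of visceral smooth muscle, was at 59.4 and 179, 63.6 and 311, 55.2 and 52.9, and 66.1 and 262 CPM (log2 fold change 1.48, adjusted p = 0.160 from edgeR). MYLK, the kinase that starts smooth muscle contraction, was higher in each ram (0.71, adjusted p = 0.216 from edgeR), and the smooth muscle myosin MYH11 in 3 of 4 (0.88, adjusted p = 0.296 from edgeR). The part of smooth muscle in the differences of other genes was not tested.

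The summed dermal markers were lower at the mid-tail in 4 of 4 rams, but dermal genes as a list were not. The 4 dermal markers summed to 10557 and 3921 CPM at base and mid-tail of ram 835507, 15202 and 14913 in ram 871772, 16789 and 6484 in ram 871784 and 12640 and 9875 in ram 871932. Both mid-tail libraries lay below both base libraries in rams 835507 and 871784 only. In ram 871772 the mid-tail libraries were at 15154 and 15073 CPM, between base libraries at 14019 and 17079. In ram 871932 they were at 8935 and 11314 against 9102 and 15815 CPM. COL1A1, the main collagen of dermis, had a log2 fold change of -1.26 (adjusted p = 0.363 from edgeR) and was slightly higher at the mid-tail of ram 871772. DCN, decorin, was higher at the mid-tail of ram 871932, and LUM, lumican, at those of rams 871784 and 871932. Of 22 dermal fibroblast genes 12 were above 0, with a median of 0.04. Of 39 collagen genes none passed, and their median was 0.28, or 0.14 without ram 871772, with 28 above 0. COL15A1, a collagen of basement membrane zones, was higher in each ram (0.62, adjusted p = 0.186 from edgeR).

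Of 21 wool follicle keratins and factors none passed, 20 fold changes were below 0, 7 genes were lower at the mid-tail in each ram and 0 were higher in each, and the median was -0.87. That median was -0.34 without ram 835507. The 2 wool follicle markers in the table summed to 7847 and 1926 CPM in ram 835507, 7372 and 9783 in ram 871772, 9611 and 7208 in ram 871784 and 13010 and 7611 in ram 871932, so that ram 871772 went the other way. The follicle homeobox gene MSX2 was at 84.1 and 31.8 CPM in ram 835507 and at 164 and 142 in ram 871772 (log2 fold change -0.69, adjusted p = 0.394 from edgeR). Of 25 epidermal keratinocyte genes none passed, with 15 above 0 and a median of 0.10, or -0.16 without ram 871772. KRT1, a keratin of the layers above the basal cells, was higher in each ram (log2 fold change 0.99, adjusted p = 0.334 from edgeR).

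**Figure D2:**
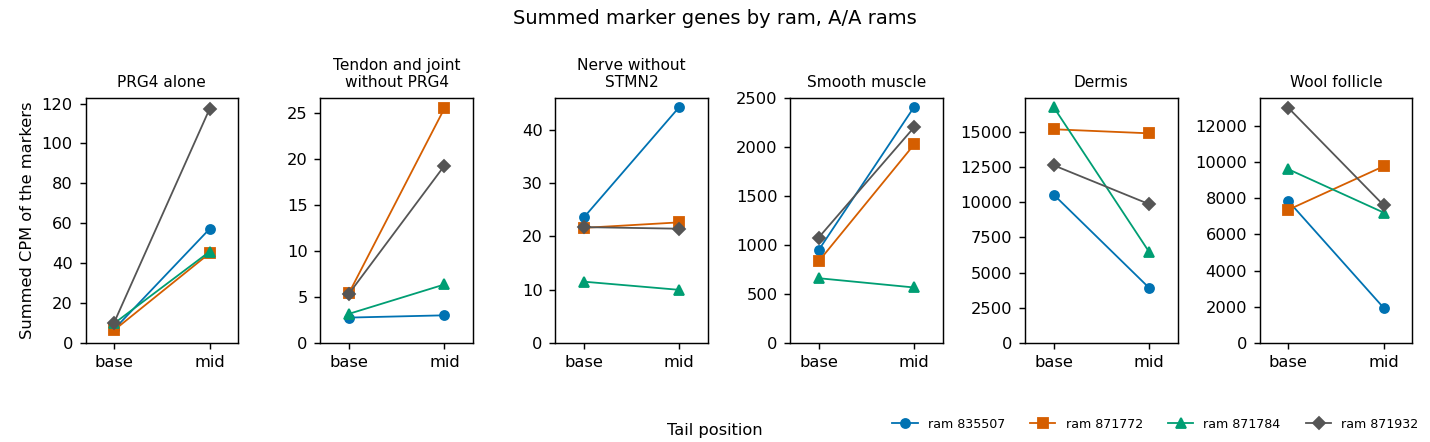
Summed CPM, on linear axes that start at 0, of marker genes at the tail base and mid-tail of the 4 A/A rams, with lines joining the positions of a ram. PRG4 stands in a panel of its own, and the panels of tendon and joint and of nerve markers leave out PRG4 and STMN2. The tendon and joint markers without PRG4 go up in 4 of 4 rams and the dermal markers down in 4 of 4, while smooth muscle goes up in 3 and wool follicle down in 3.

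Pigment cell genes had lower values at the mid-tail mainly in ram 871932. The median log2 difference of the list was -1.31 in that ram, and 0.02, -0.06 and -0.22 in rams 835507, 871772 and 871784. Of 16 melanocyte and pigment genes none passed, 15 fold changes were below 0, and the median was -0.41, or -0.17 without ram 871932 and -0.85 without ram 835507. TYR, tyrosinase, the enzyme that starts melanin synthesis, was at 6.75 CPM at the base of ram 871932 and at 0.176 to 0.373 CPM at the other bases, against 0.04 to 0.12 CPM at the mid-tails (log2 fold change -3.78, adjusted p = 0.292 from edgeR). TRPM1, a channel of melanocytes, was at 11.9 CPM at the base of ram 871932 and at most 0.186 at any other base or mid-tail (-4.72, adjusted p = 0.258 from edgeR). DCT, an enzyme of the same pathway, was at 11.8 and 1.96 CPM in ram 871932 and at 8.26 and 8.32 in ram 871784 (-1.24, adjusted p = 0.355 from edgeR).

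Among the genes with the smallest p, several had the same direction in each ram without passing. MMP7, matrilysin, a small secreted protease of gland epithelia, was at 4.15 and 11.8 CPM in ram 835507, 2.33 and 9.40 in ram 871772, 3.85 and 10.5 in ram 871784, and 4.69 and 14.5 in ram 871932. Its values did not overlap, and its log2 fold change was 1.61 (SE 0.27, edgeR adjusted p = 0.0522). HPSE2, a heparanase-like protein without enzyme activity, was at 1.3 (adjusted p = 0.0701), the diacylglycerol kinase gene DGKE at 0.74 (adjusted p = 0.0703), the ubiquitin protease gene USP13 at 1.34 (adjusted p = 0.0767) and the calcium channel gene CACNA1D at 0.90 (adjusted p = 0.0935, all from edgeR). ADAMDEC1, a protease of macrophages, had a log2 fold change of 3.45 (adjusted p = 0.0701 from edgeR), but it was at 3.58 and 130 CPM in ram 835507 and between 0.154 and 1.22 CPM in the other rams. P2RX1, an ATP-gated channel of smooth muscle and platelets, was at 2.78 and 13.4 CPM in ram 835507 and at 0.493 and 0.804 in ram 871784 (1.81, adjusted p = 0.103 from edgeR).

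Among genes with lower values at the mid-tail, LOXL4, a lysyl oxidase that crosslinks collagen and elastin, had a mid-tail below every base. It was at 7.15 and 3.60 CPM in ram 835507, 14.6 and 4.11 in ram 871772, 24.7 and 2.48 in ram 871784 and 9.62 and 3.01 in ram 871932 (log2 fold change -1.98, SE 0.37, edgeR adjusted p = 0.0935). The mid-tail values were close together, and the differences between rams lay in the base. RNASE9, a member of the ribonuclease A family known from the epididymis, was at 9.71 and 0.531 CPM, 0.14 and 0, 0.555 and 0.14, and 1.74 and 0 (-4.06, adjusted p = 0.0522 from edgeR). PDE4C, a cAMP phosphodiesterase, was at 1.48 to 3.66 CPM at the base and 0.595 to 1.02 CPM at the mid-tail (-1.50, adjusted p = 0.126 from edgeR). The cell surface peptidase gene DPP4, a fibroblast marker, had a log2 fold change of -0.98 (adjusted p = 0.150 from edgeR) and was level in ram 871784, at 76.7 and 73.7 CPM. OMG, a myelin glycoprotein, was at 80.4 and 10.4 CPM in ram 871932 and 5.52 and 2.87 CPM in ram 871784 (-1.61, adjusted p = 0.154 from edgeR).

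**Figure D3:**
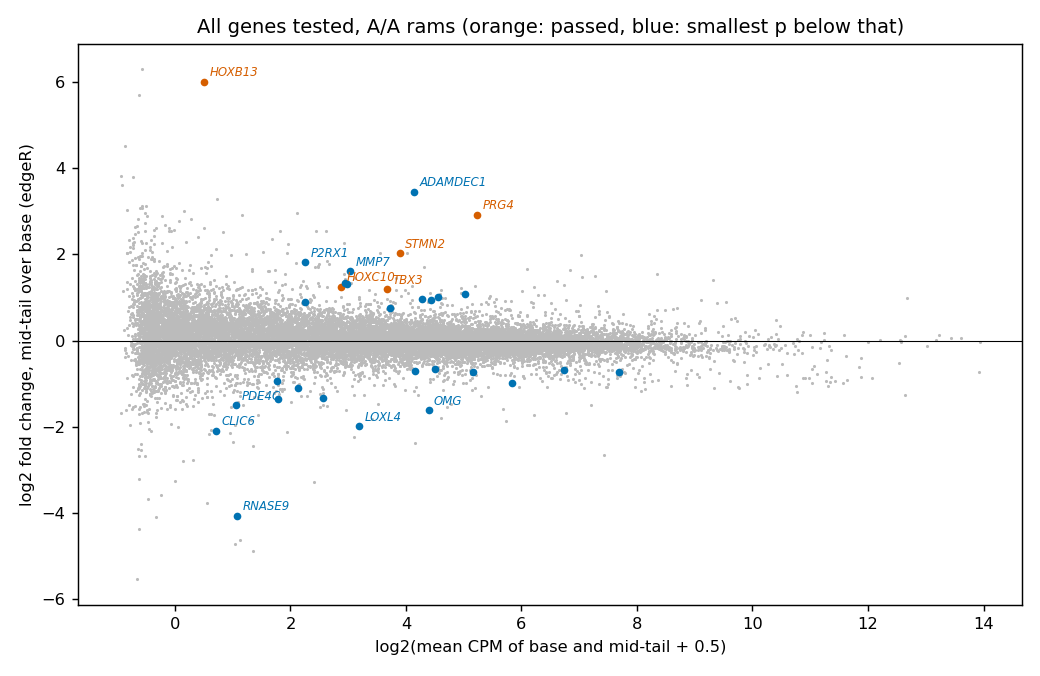
Log2 fold change of the A/A mid-tail over the base from edgeR against the mean level of base and mid-tail, as log2 of the CPM with 0.5 added, for the 19444 genes tested (grey points). Orange points are the 5 called genes, all above 0, and blue points are the other higher and lower genes named for their small p, with labels for those of large change. Grey points far from 0 stand mostly at low levels.

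With the thresholds that the study sets on the adjusted p (0.01) and on the size of the log2 fold change (1), 0 of the 19444 genes were called by edgeR and 1 by limma-voom. DESeq2 on the ram sums called 34 of the 25558 genes to which it gave an adjusted p (0.133%), 19 higher and 15 lower. Of the 34 genes, 21 have a symbol, and 13 are uncharacterised loci or transfer RNA genes. A group of 8 was not tested by edgeR because of its low counts. All of this group are among the lower genes, with 0 counts at the A/A mid-tail and at most 4 at the A/A base. In it, LOC101116018 and TRNAI-AAU_10 had 0 counts at both positions, so their calls show no fall between base and mid-tail. The 21 with a symbol include the 5 genes above, MMP7, HOXA13, THBS4, TNMD, ACTG2, LOXL4, PDE4C, DLX1, OMG and RNASE9. They also hold FHL5, a cofactor of smooth muscle and spermatid genes, at a log2 fold change of 1.42 in edgeR (adjusted p = 0.126), and TNFSF13B, the B cell survival factor BAFF, at 1.63 (adjusted p = 0.126). THEM5, a mitochondrial thioesterase, was at 1.01 (adjusted p = 0.126 from edgeR).

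A list of 33 genes was drawn mainly from those that the study names for its RNA-seq. It also holds RNASE9, NTS, NPY, LTF and C1QL4, which the study's text does not name. It lacks ALX4, ACSM1, ACSM5, ADIPOQ and ALOX5AP, which the text does name. Of the 33 genes, 3 rose (HOXB13, HOXC10 and TBX3) and 30 did not pass. In this list 21 fold changes were above 0 and 12 below, with a median of 0.24, which was -0.09 without ram 835507. Most of these genes were chosen by the study on these samples, so the directions in the list are not independent evidence. C1QL4, a secreted C1q-like protein, had 0 counts at the base in all rams and 41 at the mid-tail, at 0.0408 to 0.592 CPM (adjusted p = 0.126 from edgeR). LTF, lactoferrin, an iron-binding defence protein of secretions, was at 2.21 and 3.06 CPM in ram 835507, 0.28 and 2.96 in ram 871772, 0.555 and 4.48 in ram 871784 and 0.404 and 10.4 in ram 871932 (log2 fold change 2.55, adjusted p = 0.305 from edgeR). FBN2, a fibrillin of developing elastic tissue, was level in ram 835507 at 1.32 and 1.35 CPM and at 3.63 and 13.6 CPM in ram 871772 (1.34, adjusted p = 0.334 from edgeR). SHH, the hedgehog ligand of limb bud and hair bulb, was lower in 3 of 4 rams (-0.96, adjusted p = 0.419 from edgeR).

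The remaining lists had no called gene apart from HOXB13 among the tail length loci, and their medians lay between -0.14 and 0.45. The heat shock list of 16 genes had 13 fold changes below 0 and a median of -0.14, with HSPB8 lower in each ram (log2 fold change -0.51, adjusted p = 0.312 from edgeR). The innate defence list of 19 genes had a median of 0.45 with 11 above 0, and PGLYRP1, a peptidoglycan receptor, was higher in each ram (1.34, adjusted p = 0.30 from edgeR). The medians were 0.28 for 19 dermal papilla genes, 0.25 for 22 endothelial genes, 0.15 for 22 adipocyte genes, 0.16 for 22 sebaceous gland genes and -0.05 for 16 sweat gland genes. They were -0.08 for 26 fatty acid genes, 0.13 for 19 skeletal muscle genes, 0.06 for 17 macrophage and dendritic genes, 0.145 for 18 lymphocyte and plasma cell genes, 0.02 for 21 chemokines and 0.11 for 14 mast cell genes. They were 0.02 for 34 metalloprotease genes, 0.09 for 22 elastic fibre genes, 0.03 for 25 immediate early genes, 0.04 for 4 blood genes and 0.07 for 5 genes at tail length and tail fat loci. Most of these small medians depended on single rams. Without ram 835507 the median was -0.11 for endothelial, -0.20 for adipocyte and -0.10 for dermal fibroblast genes, and the innate defence median was 0.17 without ram 871772 and 0.15 without ram 871932.

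**Figure D4:**
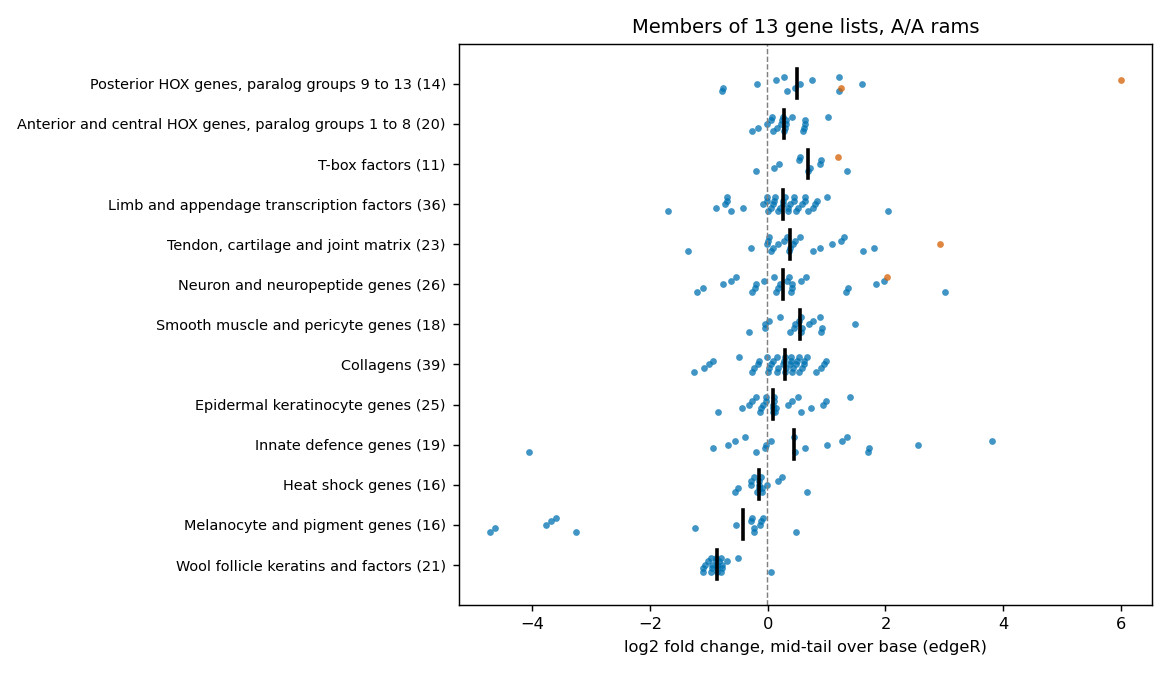
Log2 fold changes of the A/A mid-tail over the base from edgeR for the tested members (points, orange where called) of 13 gene lists, whose number of members is in brackets, with a black bar at the median of each list and a dashed line at the median of all genes tested, -0.01. The wool follicle list lies lowest with a median of -0.87, and the T-box list highest with 0.69.

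The tail tip of the same 4 rams was compared with the same base libraries, so the differences at mid-tail and tip share these and are given side by side only. HOXB13 was at 6.56, 5.31, 3.44 and 4.12 CPM at the tip of rams 835507, 871772, 871784 and 871932, above the mid-tail of the same ram in 4 of 4 rams. PRG4 was at 119, 34.4, 112 and 159 CPM at the tip and below the mid-tail in ram 871772. STMN2 was at 26.1, 18.1, 17.1 and 14.3 CPM at the tip, which was below the mid-tail in rams 871772 and 871932. The log2 fold changes of tip over base were 7.72 for HOXB13, 1.49 for HOXC10, 1.3 for TBX3, 3.55 for PRG4 and 1.79 for STMN2, against 6.0, 1.25, 1.19, 2.92 and 2.03 at the mid-tail. Between the tip and the mid-tail themselves, 0 of 19444 genes passed in edgeR, with 787 at an unadjusted p under 0.05, and DESeq2 called 50. HOXB13 had a log2 fold change of tip over mid-tail of 1.72 (adjusted p = 0.666 from edgeR). LOXL4 was at 1.32 to 1.52 CPM at the tips, below the mid-tail of each ram (-1.25, adjusted p = 0.839 from edgeR).

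In the 3 D/D rams the mid-tail lay on other tails, at other distances from the base, and its values are given for the same genes. Ram 871869 had a single mid-tail library. HOXB13 was at 0.0939, 0.152 and 0.0572 CPM at the mid-tail of rams 871787, 871868 and 871869, below the lowest A/A mid-tail of 0.42 CPM. At the D/D base it was at 0, 0 and 0.0309 CPM in the same order. All these D/D values were close to the limit of detection, so the D/D fold change of HOXB13 depends on how a 0 is handled. HOXC10 was at 4.97, 5.50 and 5.29 CPM at the D/D base and 11.03, 11.6 and 12.4 CPM at the D/D mid-tail. PRG4 went from 4.85, 6.35 and 15.3 CPM at the D/D base to 61.8, 53.6 and 39.0 CPM at the mid-tail, and STMN2 from 8.38, 3.52 and 12.3 CPM to 20.7, 11.1 and 28.6 CPM. TBX3 was at 10.6, 8.59 and 9.90 CPM at the D/D base and at 21.4, 16.6 and 17.6 CPM at the mid-tail. The D/D log2 fold changes were 2.75 for HOXB13, 1.15 for HOXC10, 2.54 for PRG4, 1.36 for STMN2 and 0.93 for TBX3, with adjusted p-values of 0.756, 0.297, 0.297, 0.315 and 0.297 from edgeR.

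The difference of the mid-tail change between D/D and A/A rams passed for 0 of 19444 genes in edgeR, with 1013 at an unadjusted p under 0.05 and a smallest adjusted p of 0.159, and DESeq2 called 15. For HOXB13 the D/D change was smaller by 3.25 on the log2 scale (log2 difference -3.25, SE 2.98, edgeR adjusted p = 0.894). The differences were -0.10 for HOXC10 (adjusted p = 0.969), -0.26 for TBX3 (adjusted p = 0.899), -0.39 for PRG4 (adjusted p = 0.936) and -0.67 for STMN2 (adjusted p = 0.884, all from edgeR). MMP7 was higher at the mid-tail in 4 of 4 A/A rams and lower in 3 of 3 D/D rams. The smooth muscle list had a median of 0.54 in A/A rams against -0.05 in D/D rams, and the wool follicle list one of -0.87 against 0.05. A p that misses the threshold does not show that the genotypes changed alike.

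**Figure D5:**
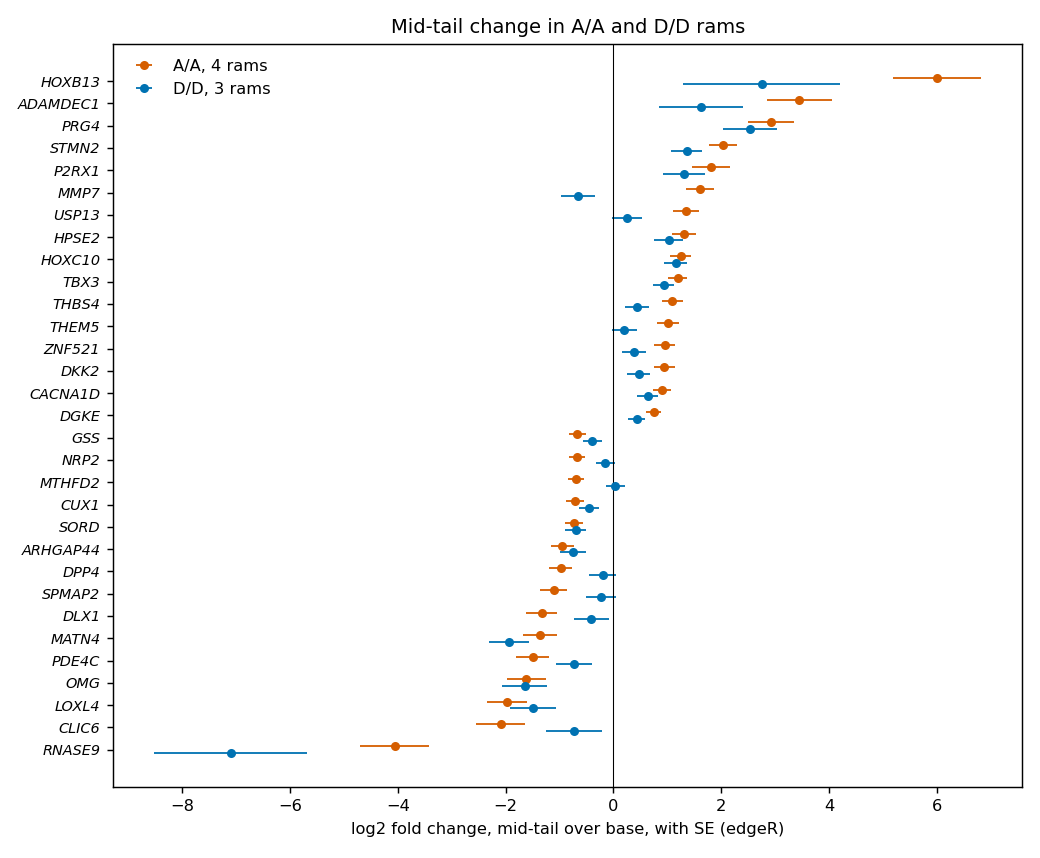
Log2 fold changes of mid-tail over base in the 4 A/A rams (orange) and the 3 D/D rams (blue) from the edgeR fit, with bars of 1 SE, for the called genes and the higher and lower genes named for their small p in A/A. The genes were chosen on the A/A values, which fixes the A/A order. HOXC10, TBX3, PRG4 and STMN2 lie above 0 in both genotypes, while MMP7 is at 1.61 in A/A and at -0.66 in D/D.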

How the data were processed

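RNA of adult ram tail skin was selected on oligo(dT) beads and made into strand-specific CorALL libraries. Per the labels and the study's methods, the authors checked reads with FastQC 0.11.9 and aligned them with ContextMap 2, which used BWA, to the genome ARS-UI_Ramb_v3.0. They then counted reads for each RefSeq gene on its strand with featureCounts, whose version is not given in the sources read here. The deposited table holds raw counts for 31182 genes in 41 libraries, and 0 columns were left out. The deposited tail tip columns were entered as estimated counts because of a word in their names, but they are whole counts like the others, and rounding changed nothing.

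The libraries of a ram and position, 2 in all cases but one, were summed to 21 ram sums. These were tested with edgeR 4.0.16 (quasi-likelihood, R 4.3.3) after TMM scaling, on the 19444 genes that passed the low-count filter of edgeR (filterByExpr). The design held a term for each ram and terms for the A/A mid-tail, A/A tip, D/D mid-tail and D/D tip, with 10 residual degrees of freedom. All 7 rams thus share one estimate of the spread. P-values were adjusted after Benjamini-Hochberg over all genes tested, and standard errors were computed from the log2 fold change and its F value. Positions are paired because they come from the same animal, and the correlation of the base and mid-tail deviations of a ram was 0.0539 to 0.723. Values per ram are CPM after TMM, and log2 differences per ram used CPM with 0.5 added. An exact test on 4 pairs cannot go below a two-sided p of 0.125, so none was run on single sums.

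The members, the 37 gene lists and the tests were chosen with earlier results of these data known. Genes were named if called, if called by DESeq2 at the study's thresholds, or if in the list drawn mainly from the study's named genes. The 15 higher and 15 lower genes with the smallest p in a subset were named as well. Members of this subset have a symbol, reach 1 CPM on average and go one way in all A/A rams. List members with the smallest p and marker genes were named too. A few genes that these rules name were left out of the text. Coordinates come from RefSeq on the same build. The alternatives were DESeq2 1.42.0, limma-voom (limma 3.58.1), single libraries, each library alone, other blocks, scalings and filters, the A/A rams alone, and each ram left out. The edgeR step was tested on simulated data in which only genes with more counts than HOXB13 were changed, each alike in all A/A rams. It thus does not cover changes at such low counts or changes that differ between rams.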

Additional observations from a re-analysis of the deposited data

Results flagged for a closer look

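Per ram, the difference of mid-tail minus base in log2 CPM was searched for a ram far from the other three in 62 named genes, and 6 genes had one by Dixon's test at its 95% critical value, where chance gives about 1 in 20 genes. TBX3, one of the called genes, was at 0.80 in ram 835507 against 1.23 to 1.31 in the others. ZNF521, a zinc finger regulator of progenitor cells, was at 0.21 in ram 871784 against 1.09 to 1.21, and DPP4 at -0.057 in the same ram against -1.33 to -1.16. SP8, a limb bud transcription factor with 2 counts at the base and 12 at the mid-tail, was at 0.86 in ram 871772 against -0.12 to 0 in the others, and the ratio of its summed counts was 5.41 with a 95% counting interval of 1.21 to 49.8. ALOX15, a lipoxygenase, was at 1.21 in ram 835507 against -0.78 to -0.44, and LEP, the leptin gene, at 1.73 in ram 835507 against -0.44 to -0.08.

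The same 62 genes were searched for opposite directions in the 2 genotypes, alike in all rams of each, and 1 gene had them, MMP7. Part of the 62 had been chosen for the same direction in all A/A rams. How many such genes chance would give was not computed. MMP7 was higher at the mid-tail in 4 of 4 A/A rams and lower in 3 of 3 D/D rams. In the D/D rams it was at 8.5 and 6.15, 3.79 and 2.43, and 5.91 and 3.32 CPM at base and mid-tail. The D/D change was smaller than the A/A change by 2.27 on the log2 scale (log2 difference -2.27), which did not pass the correction over all genes (adjusted p = 0.306 from edgeR).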

How the results depend on the processing

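The number of genes called at the A/A mid-tail (5) was 141 with DESeq2, 10 with limma-voom, 15 without the filter on low counts, 1 with the A/A rams alone (also with their base and mid-tail alone), 1 and 0 from library 1 and library 2 alone, and 0 to 26 with 1 ram left out. Taking single libraries as replicates gave 418 in edgeR and 774 in DESeq2. Without the replicate block, which pairs the positions of a ram, it was 3, and with the library number as a block beside the ram 379. At the study's thresholds (0 in edgeR) these settings gave 34 with DESeq2, 1 with limma-voom, 47 and 109 with single libraries in edgeR and DESeq2, 46 with the library number as a block, 0 without the replicate block, 1 from library 1, 3 without the filter, 1 with the A/A rams alone, and 0 to 1 with 1 ram left out. The difference between genotypes (0) had 15 genes with DESeq2, 4 and 42 with single libraries, 4 with the library number as a block and 0 to 1 with 1 ram left out. Tip against mid-tail (0) had 50, 36 and 87, and 32 in the same order, and 4 without the filter.

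Of the values of 62 named genes under the alternatives, 1062 kept direction and side of the threshold, 38 lost it, 169 gained it and 24 turned direction, none of these a called gene. ALOX15 turned to 0.0051 without the block, and PTGS1 to -0.00051 with DESeq2, -0.00052 with RLE factors, -0.0083 without the filter and -0.0025 with a filter of 1 CPM. PTGDS turned to -0.065 and DAGLA to 0.061 with library 2 alone, and PCK1 to -0.26 and LEP to -0.28 with library 1 alone. CYP2A6 turned to -0.012 with limma-voom, -0.42 without the block and -0.081 with library 2. With 1 ram left out the ranges were -1.01 to 2.95 for SP8, -1.18 to 0.080 for AGT, -0.22 to 0.22 for PTGS1, -0.30 to 0.35 for PTGDS, -0.27 to 0.62 for PCK1, -0.53 to 0.51 for LEP, -0.33 to 0.094 for DAGLA and -0.34 to 0.39 for CYP2A6. The cause was not tested. Scaling by totals moved the median of all genes to 0.05 and RLE to -0.02.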

Other observations

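A few genes differed between rams by far more than between the positions of a ram. CYP2A6, a cytochrome of drug and steroid metabolism, was at 6.05 and 17.4 CPM at base and mid-tail of ram 835507, against 248 to 648 CPM at the bases and 332 to 383 CPM at the mid-tails of the other A/A rams. ACSM2B, a medium-chain acyl-CoA synthetase, was at 53.7 and 8.41 CPM in ram 835507 and at 0.326 to 1.08 CPM at the other bases. The related gene ACSM1 was at 301 and 319 CPM in ram 835507 and at 34.5 to 73.9 CPM at the bases of the others. No test was made between rams.

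The immediate early gene FOS was at 254 and 9.80 CPM at base and mid-tail of ram 835507, and at 12 to 48.1 CPM at the other bases. EGR1, which responds to the same signals, was at 167 CPM at the base of that ram, within the range of the other bases (120 to 203 CPM). At its mid-tail EGR1 was at 55.7 CPM, below the other mid-tails (77.4 to 199 CPM). AOC1, a diamine oxidase that degrades histamine, was at 8.96 and 15.1 CPM in ram 835507 but went from 22.0 to 4.40, 20.3 to 2.55 and 6.23 to 1.4 CPM in the others (log2 fold change -1.81, adjusted p = 0.380 from edgeR). The chemokine CCL26 had the same pattern, from 14.3 to 22.2 CPM in ram 835507 and from 10.1 to 4.00, 8.76 to 2.45 and 9.38 to 2.17 CPM in the others (-1.25, adjusted p = 0.334 from edgeR).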
